A study of Mus musculus with 8 samples.

Results

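Chromosome 6 of the mouse was examined here as 1 set of genes in 4 groups of embryonic stem (ES) cell arrays. A gene was a member when the RefSeq table (GRCm38.p6) placed it on chromosome 6 and a probe for it had a detection p-value under 0.05, the authors' measure of signal over background, on both arrays of at least 1 group. The probe with the highest mean intensity stood for its gene. This gave 428 members of 8733 tested genes, after 15 chromosome 6 genes, among them the imprinted Mest and Peg10, were left out by name. The members were therefore chosen by position, detection and brightness, and it was already known that the chromosome was shifted in these arrays, so its median is given as a description with no test. Of the members, 368 were detected on all 8 arrays, and 31, 17 and 12 in 3, 2 and 1 of the groups. Names were given only for probes of the authors' second table, each detected on 4 or more arrays, so that all 626 probes named for the chromosome passed, and probes just outside the threshold are unnamed and not analysed here. Just inside it were 14 members with a best detection p-value of 0.04, such as B4galnt3 and C1s1.

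The study set genetically modified parthenogenetic ES cells beside parthenogenetic ES cells, and all 8 samples were of B6D2F1 hybrid mouse background. Normal ES cells came from mouse embryos and parthenogenetic ES cells from mouse oocytes, that is, from eggs activated without a father. The other groups were parthenogenetic ES cells, one labelled as overexpressing Igf2, the paternally expressed growth factor gene (here Igf2-labelled), and the other labelled as having lowered expression of H19, the maternally expressed RNA gene beside Igf2 (here H19-labelled). The labels do not give the construct, the promoter or the number of clones behind either modified line. Each group had 2 arrays. The design text speaks of biological replication but does not say that replicates came from separate cultures, and a p-value here is set against array-to-array spread, which may be technical.

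Igf2 and H19 lie on another chromosome, chromosome 7, and share an imprinting control region. Chromosome 6 carries genes of most housekeeping classes, the Hoxa cluster of developmental regulators, and the pluripotency-linked group around Nanog that was left out here. A parthenogenetic cell carries maternal copies of every chromosome, and paternally expressed imprinted genes are therefore affected.

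Intensities had medians of 172.1 to 197 units per array, with 47.1% to 49.5% of 25697 probes detected. Replicate arrays correlated at 0.961 in the normal group, where 1027 of 12932 tested probes were more than 1 log2 unit apart, and at 0.995 to 0.996 in the other groups, where 20 to 21 did. The ES cell markers, 7 of 7, were detected on every array (mean log2 intensity 12.51 to 12.78). Fibroblast markers, 12 of 15 measured and none of those at background, had mean log2 intensities of 12.45 and 10.99 in the normal group, 12.37 and 12.41 in the parthenogenetic group, 12.16 and 12.13 in the Igf2-labelled group and 11.63 and 11.61 in the H19-labelled group. The log2 intensity of Igf2 was 15.62 and 13.63 in the normal group and 15.58 and 15.62 in the parthenogenetic group. It was 15.61 and 15.49 in the Igf2-labelled group (difference from parthenogenetic -0.05, adjusted p = 0.992, limma). In the H19-labelled group it was 14.98 and 14.94 (difference from parthenogenetic -0.64, adjusted p = 0.532, limma). Fibroblast markers were likewise lower on normal replicate 2 than on replicate 1, and their part in the Igf2 signal was not tested. The Igf2-labelled arrays were thus not measurably higher than the parthenogenetic arrays in the gene that names them, and no probe named H19 was analysed here. The probe for Igf2 lies near the top of the scale, and whether the construct's transcript carries the probe's sequence is not given in the sources used here.

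Genes of chromosome 6 were higher in both modified lines than in the unmodified parthenogenetic cells, which did not differ in this way from normal ES cells. The labels do not say whether either modified line was made from the parthenogenetic cells on these arrays. The median member was 1.24-fold higher in Igf2-labelled than in parthenogenetic cells (median log2 difference 0.31) and 1.33-fold higher in H19-labelled cells (0.41). The 8290 genes of other chromosomes had medians of -0.02 and 0.00 in the same comparisons. Between parthenogenetic and normal ES cells the members' median was -0.02, against -0.01 for the other genes. Fewer cells of a type and less RNA per cell cannot be told apart in these bulk samples.

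The shift was visible on every array. With each gene set against its own mean over the 8 arrays, the median member deviated by -0.18 and -0.14 on the normal arrays and by -0.17 and -0.20 on the parthenogenetic arrays. The same value was 0.17 and 0.15 for the Igf2-labelled line and 0.21 on each H19-labelled array. The lowest modified array thus stood above the highest of the other 4, while genes elsewhere stayed between -0.01 and 0.04. The normal arrays differed by 1.46 in the mean of the fibroblast markers and by 0.04 in the members' median deviation. Fibroblast markers were lower in both modified lines than in parthenogenetic cells, with medians of -0.23 and -0.87, and their part in the members' differences was not tested.

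**Figure D1:**
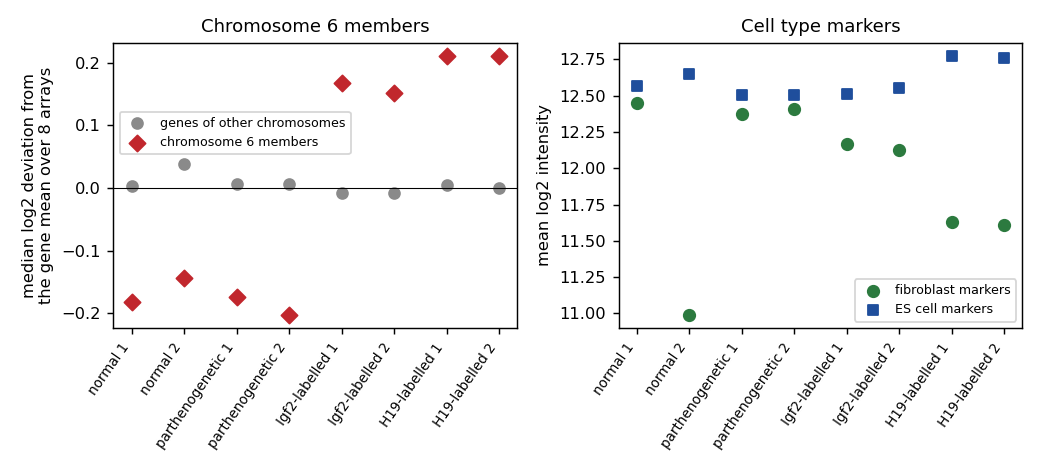
Left, median log2 deviation of the 428 chromosome 6 members and of 8290 other genes from each gene's mean over 8 arrays, by array; right, mean log2 intensity of 7 ES cell and 12 fibroblast markers on the same arrays. The 4 modified arrays sit between 0.15 and 0.21 for chromosome 6 and the other 4 between -0.20 and -0.14.

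None of the 19 other chromosomes with at least 10 tested genes had a median of this size. In Igf2-labelled minus parthenogenetic cells their medians ran from -0.06 to -0.01, and in H19-labelled minus parthenogenetic cells from -0.06 to 0.05. Against normal ES cells, which share no array with the parthenogenetic group, the members' medians were 0.33 for the Igf2-labelled and 0.36 for the H19-labelled arrays, while the other chromosomes ran from -0.09 to -0.00 and from -0.14 to 0.00. Between the modified lines the members' median was 0.05, inside the range of -0.02 to 0.05 of the other chromosomes.

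**Figure D2:**
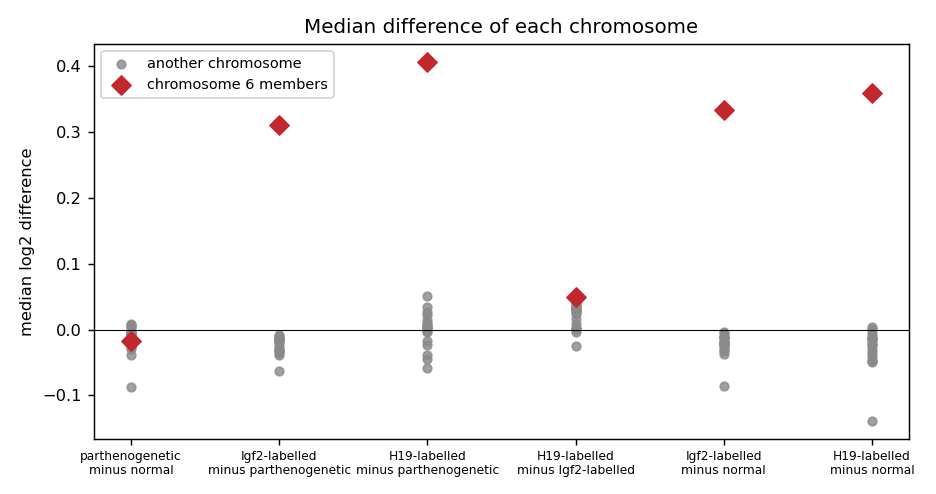
Median log2 difference of the chromosome 6 members (diamonds) and of each of 19 other chromosomes (circles) in 6 comparisons. Chromosome 6 stands at 0.31 to 0.41 in the 4 comparisons of a modified line with unmodified cells, and among the other chromosomes in the remaining comparisons.

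Most members took part. In the Igf2-labelled comparison with parthenogenetic cells 361 of 428 members had a positive difference (84.3%, against 44.9% of other genes), and both Igf2-labelled arrays lay above both parthenogenetic arrays for 306 members (71.5%, against a background of 26.0% of all probes) and below them for 31 (7.24%, background 29.2%). In the H19-labelled comparison 327 members had a positive difference (76.4%, against 50.8%), 292 lay wholly above (68.2%, background 36.4%) and 68 wholly below (15.9%, background 32.7%). These comparisons share the parthenogenetic arrays. Between parthenogenetic and normal cells 69 members lay wholly above (16.1%, background 17.7%) and 75 wholly below (17.5%, background 18.2%). Between H19-labelled and Igf2-labelled cells 173 lay above (40.4%, background 34.9%) and 115 below (26.9%, background 28.4%), both near the background.

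Single genes passed the test less often than the groups separated. In the fit of all 8 arrays 6 members rose and 0 fell in Igf2-labelled cells at an adjusted p under 0.05 (limma). Of all probes 0.271% rose and 0.271% fell there. In H19-labelled cells 67 members rose and 1 fell, where 2.52% of all probes rose and 1.83% fell. The 67 were among 205 genes that rose anywhere in the genome. Against normal ES cells 6 members rose in Igf2-labelled cells (background 0.448%) and 67 rose and 2 fell in H19-labelled cells (backgrounds 2.95% and 2.08%). None passed between parthenogenetic and normal cells (backgrounds 0.0232% higher and 0.0851% lower) or between the modified lines (backgrounds 0.0851% higher and 0.116% lower). With both normal arrays left out of the fit, 165 members rose and 5 fell in Igf2-labelled cells (backgrounds 5.44% and 4.25%), and 243 rose and 51 fell in H19-labelled cells (backgrounds 16.1% and 17.1%). Without normal replicate 1 the parthenogenetic minus normal comparison had 97 members higher and 101 lower (backgrounds 20.2% and 20.0%), the Igf2-labelled minus normal comparison 185 and 20 (backgrounds 21.3% and 19.7%) and the H19-labelled minus normal comparison 198 and 18 (backgrounds 16.7% and 13.8%). Without normal replicate 2 these were 1 and 1 (backgrounds 0.34% and 0.534%), 113 and 5 (backgrounds 3.9% and 3.11%), and 215 and 44 (backgrounds 15.0% and 15.5%). Without 1 Igf2-labelled array 4 members passed in H19-labelled minus parthenogenetic cells. Leaving out either parthenogenetic or either H19-labelled array left 0 members past the threshold in the H19-labelled comparison. In simulated data of this design 200 of 12932 probes were changed and all groups had the same spread. There limma recovered, for the H19-labelled comparison, 5.67% of probes made to differ by 0.5 log2 units and 71% of those made to differ by 1. In the data the normal arrays spread more than the others, so these shares need not hold for the members.

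Comparisons without a shared array can be set side by side. The 67 risers in H19-labelled minus parthenogenetic cells and the 6 in Igf2-labelled minus normal cells had 4 genes in common, Creld1, Dusp16, Gpr19 and Slc25a13, which is 5.97% of the longer list and 66.7% of the shorter. The 6 risers in Igf2-labelled minus parthenogenetic cells shared C2cd5, Cd9, Gpr19 and Med21 with the 67 in H19-labelled minus normal cells, which gives the same shares. All of these used 1 estimate of each probe's spread. The same overlap among all probes is not given here, so these shares cannot be called particular to the chromosome.

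Promoters of 3 members are shown, of C2cd5 and Med21, which rose in both modified lines, and of Akr1b8, the member that fell in H19-labelled cells. Each is the 250 bases before the start in the RefSeq table (GRCm38.p6), written along the gene's own strand with CG dinucleotides in capitals. The C2cd5 window is chr6:143100153-143100402 on the minus strand, with 18 CG and 65.6% G or C. The Med21 window is chr6:146642329-146642578 on the plus strand, with 18 CG and 64.8% G or C. The Akr1b8 window is chr6:34353896-34354145 on the plus strand, with 9 CG and 49.6% G or C, and it holds the letters TATAAA on 1 strand.
C2cd5: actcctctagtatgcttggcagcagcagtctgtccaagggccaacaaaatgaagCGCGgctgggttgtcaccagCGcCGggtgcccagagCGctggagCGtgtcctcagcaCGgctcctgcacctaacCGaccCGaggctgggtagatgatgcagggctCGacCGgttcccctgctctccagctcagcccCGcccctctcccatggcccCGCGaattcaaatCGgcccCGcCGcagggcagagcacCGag
Med21: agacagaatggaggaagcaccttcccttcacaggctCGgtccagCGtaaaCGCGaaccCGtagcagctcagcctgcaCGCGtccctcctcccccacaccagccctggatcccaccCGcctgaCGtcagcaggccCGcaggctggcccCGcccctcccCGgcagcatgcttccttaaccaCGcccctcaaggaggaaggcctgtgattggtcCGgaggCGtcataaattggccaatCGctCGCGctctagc
Akr1b8: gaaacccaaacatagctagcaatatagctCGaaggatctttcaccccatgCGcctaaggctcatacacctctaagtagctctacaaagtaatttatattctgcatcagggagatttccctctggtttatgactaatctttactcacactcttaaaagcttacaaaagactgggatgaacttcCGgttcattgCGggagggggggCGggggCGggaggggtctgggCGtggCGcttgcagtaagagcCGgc

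Promoter composition of the members was close to that of genes elsewhere. A promoter was matched for 379 members (88.6%), with a median of 58.8% G or C and 14 CG, against 60.0% and 16 for tested genes on other chromosomes and a median of 6 CG for all promoters in the table. The members that rose in H19-labelled cells had medians of 59.6% and 17. The letters GGGCGG (GC box, either strand, no overlap counted with other motifs) were in 58.8% of member promoters, 60.9% of those of other tested genes and 32.9% of all promoters in the table. Among the 51 members lower in H19-labelled cells without the normal arrays, 43 promoters had a median of 9 CG, and 48.8% held GGGCGG and 14.0% TATAAA, against 61.3% and 4.61% of the promoters of the 243 higher members and 13.0% of all promoters for TATAAA. A match is a description of these windows.

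The shift ran along the whole chromosome. Members were put in gene order and split into 10 blocks of 42 or 43. In Igf2-labelled minus parthenogenetic cells the block medians ran from 0.20 in the block from Zfp282 to Itprid1, which holds the Hoxa genes, to 0.40 in the block from Cxcl12 to Ptms. In H19-labelled cells they ran from 0.26 in the block from Strip2 to Ezh2 to 0.48 in the block from Lsm5 to Dok1. Every block held 3 to 10 members that rose in H19-labelled cells, where 2.52% of all probes rose. The 3 blocks nearest the start of the chromosome, Samd9l to Itprid1, had the lowest Igf2-labelled medians (0.20 to 0.26, against 0.30 to 0.40 in the other 7). The parthenogenetic minus normal medians of the blocks lay between -0.07 and 0.12, the highest in the block from Samd9l to Ahcyl2.

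The brightest gene of each block shows the range within it. Asns, asparagine synthetase, differed by 0.39 in Igf2-labelled and 0.32 in H19-labelled cells from parthenogenetic cells. Gars, glycyl-tRNA synthetase, differed by 0.40 and 0.41, Snrpg, a core spliceosome protein, by 0.37 and 0.50, and Sec13, a vesicle coat and nuclear pore protein, by 0.23 and 0.39. Tpi1, triosephosphate isomerase, differed by 0.11 and 0.28. None of these probes passed the test in either comparison. A further Tpi1 probe differed by 0.57 in Igf2-labelled cells and rose by 0.81 in H19-labelled cells (limma, adjusted p = 0.128 and 0.0226). Another Tpi1 probe differed by 0.05 and 0.30 (limma, adjusted p = 0.989 and 0.512). Zyx, Fbln2 and Emp1, described below, were the brightest of their blocks and had negative differences in H19-labelled cells.

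The brightest members of the remaining blocks, Gapdh and Tmsb10, were measured by probes near the top of the scale. Gapdh, the glycolytic enzyme often used as a reference, had log2 intensities of 15.95 to 15.98 on all arrays, and Tmsb10, an actin-binding thymosin, 15.78 to 15.98. Their intensities before normalization were 60617 to 66306 and 58575 to 62553 units, while the brightest probe of each array lay at 64070 to 67905. Of the 2 further Tmsb10 probes 1 differed by 0.71 in Igf2-labelled and rose by 0.80 in H19-labelled cells (adjusted p = 0.0755 and 0.0221) and the other differed by 0.28 and 0.32. A further Gapdh probe differed by 0.09 and 0.16 (adjusted p = 0.915 and 0.443).

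**Figure D3:**
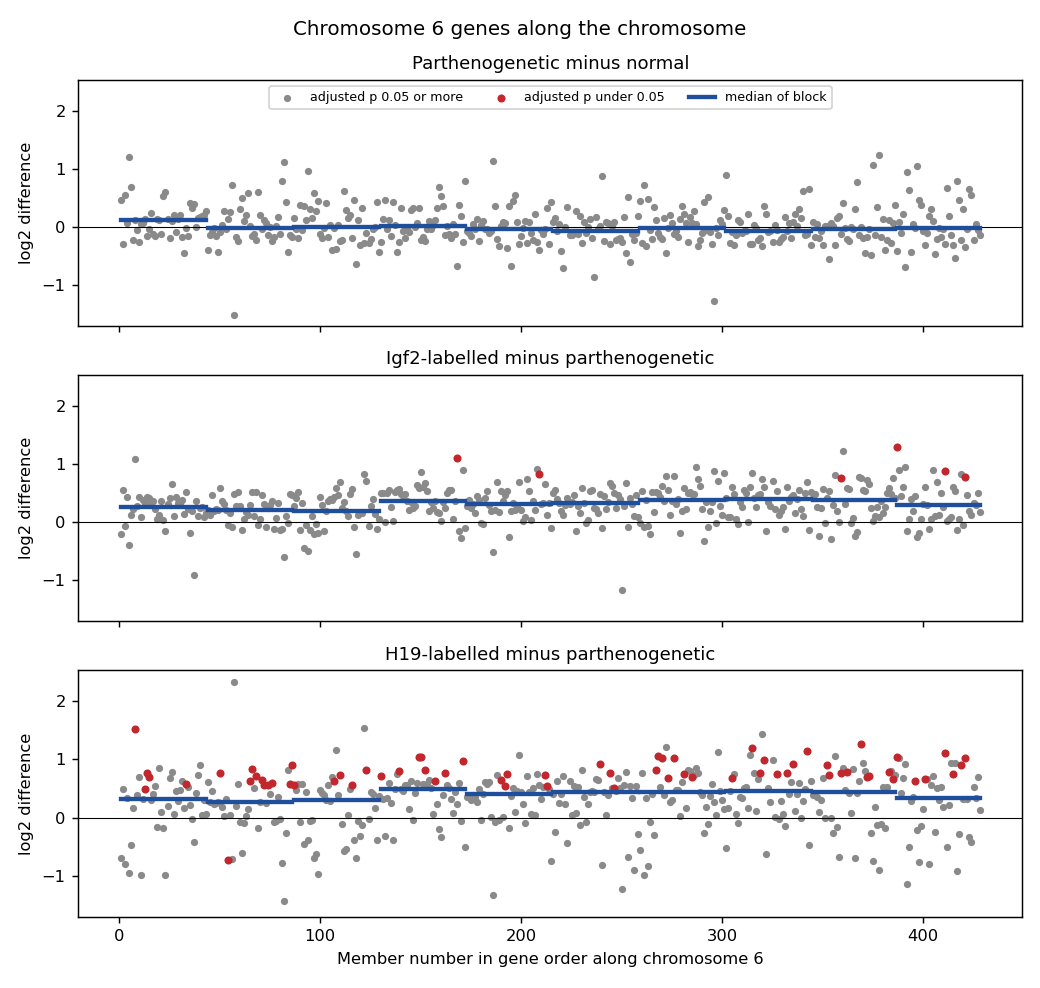
Log2 difference of each of 428 members in gene order along chromosome 6 in 3 comparisons; red points have an adjusted p under 0.05 in the fit of all arrays and blue lines are medians of 10 blocks. Block medians lie between -0.07 and 0.12 in the top panel, 0.20 and 0.40 in the middle and 0.26 and 0.48 in the bottom panel.

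The difference was smaller among the dimmest probes. Split at mean log2 intensities of 8.59 and 10.6, the values that divide all tested genes into 3 equal parts, the 144 dimmest members had medians of 0.16 in Igf2-labelled and 0.19 in H19-labelled cells. The 136 of middle level had 0.35 and 0.49, and the 148 brightest 0.37 and 0.45. Genes of other chromosomes had medians of -0.02 to 0.01 at each level. Members higher past the threshold in H19-labelled cells numbered 9, 22 and 36 from dim to bright, where 2.52% of probes of all levels rose. Positive differences in H19-labelled cells were found for 92 of the 144 dimmest, 107 of the 136 middle and 128 of the 148 brightest members.

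Genes represented by more than 1 probe gave the same direction. A total of 180 further probes of 120 members, not used to stand for the gene, had medians of 0.42 in Igf2-labelled and 0.50 in H19-labelled minus parthenogenetic cells, and 0.00 between parthenogenetic and normal cells. Of these, 6 and 44 were higher past the threshold (backgrounds 0.271% and 2.52% of all probes) and 0 were lower (backgrounds 0.271% and 1.83%). Against the sign of the gene's brightest probe stood 15 and 11 of the 180. Single calls depended on the probe. Of the 44 in H19-labelled cells, 27, of 22 genes, belonged to genes whose brightest probe did not pass, and 10 further probes of 9 genes did not pass where the brightest did. Among 27 such probes whose gene's brightest probe passed, 1 pointed the other way, for Etfrf1 (-0.03, against 0.75 for the brightest probe).

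The 6 members past the threshold in Igf2-labelled cells were, by size, Gpr19, Reg2, C2cd5, C87436, Med21 and Cd9. Members that did not pass had differences as large, among them Slc25a13 (1.08), Aebp2 (0.90), Pole4 (0.89) and Mrpl35 (0.86). A further Aebp2 probe rose by 1.26 (adjusted p = 0.0199). Gpr19, an orphan G protein-coupled receptor, had log2 intensities of 10.15 and 10.41 in normal, 9.83 and 9.90 in parthenogenetic, 11.16 and 11.13 in Igf2-labelled and 10.84 and 10.96 in H19-labelled cells. Both modified groups lay above all 4 unmodified arrays. It rose by 1.28 ± 0.127 (SE, n = 2 arrays a group, adjusted p = 0.0173) in Igf2-labelled and by 1.04 ± 0.127 (adjusted p = 0.013) in H19-labelled cells.

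C2cd5, a C2 domain protein of glucose transporter traffic, stood at 10.13 and 10.33 in normal, 9.91 and 9.94 in parthenogenetic, 10.81 and 10.81 in Igf2-labelled and 11.02 and 11.04 in H19-labelled cells. It rose by 0.89 (adjusted p = 0.0337) and 1.10 (adjusted p = 0.00837), with the parthenogenetic arrays the lowest and the groups in separate ranges. Med21, a subunit of the Mediator complex that links transcription factors to RNA polymerase II, stood at 11.19 and 11.06 in normal, 10.86 and 10.70 in parthenogenetic, 11.60 and 11.52 in Igf2-labelled and 11.79 and 11.80 in H19-labelled cells. It rose by 0.78 (adjusted p = 0.0492) and 1.02 (adjusted p = 0.0107).

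Cd9, a tetraspanin of the cell surface, rose by 0.77 in both lines (adjusted p = 0.0456 and 0.0189), from 12.88 and 12.88 in parthenogenetic to 13.66 and 13.64 in Igf2-labelled and 13.73 and 13.57 in H19-labelled cells. Its normal arrays, at 13.05 and 12.96, lay with the parthenogenetic arrays. Reg2, a secreted regenerating-family protein, was not above background in parthenogenetic cells (log2 6.35 and 6.13) and stood at 7.32 and 7.39 in Igf2-labelled cells, at least 1.77-fold higher (adjusted p = 0.032). Reg2 was not above background in H19-labelled cells either, at 6.44 and 6.52. C87436, a transcript without a gene name, rose by 0.83 in Igf2-labelled cells (adjusted p = 0.0456) and differed by 0.56 in H19-labelled cells (adjusted p = 0.0534), where its further probe rose by 0.72 (adjusted p = 0.0352).

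Among the members past the threshold in H19-labelled cells, the largest rise was that of Slc25a13, the mitochondrial aspartate-glutamate carrier citrin. Stra8 and Plekha8 had larger differences, 2.34 and 1.54, and did not pass (adjusted p = 0.0882 and 0.0547). Its log2 intensities were 9.12 and 9.55 in normal, 9.61 and 9.30 in parthenogenetic, 10.45 and 10.63 in Igf2-labelled and 10.95 and 11.02 in H19-labelled cells. It rose by 1.53 ± 0.18 (SE, n = 2, adjusted p = 0.0113) in H19-labelled cells and differed by 1.08 (adjusted p = 0.0755) in Igf2-labelled cells, with no overlap between modified and unmodified arrays. A further Slc25a13 probe rose by 1.94 in H19-labelled cells (adjusted p = 0.0185).

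Tead4, the transcription factor that starts the trophectoderm lineage, stood at 7.57 and 8.46 in normal, 7.96 and 8.05 in parthenogenetic, 8.80 and 8.75 in Igf2-labelled and 9.26 and 9.28 in H19-labelled cells, and rose by 1.27 in the last (adjusted p = 0.0487). The normal arrays differed from each other by more than the parthenogenetic arrays did. Cdca3, a mitotic entry factor, rose by 1.15 (adjusted p = 0.024), from 12.56 and 12.55 to 13.76 and 13.65, and its further probe by 1.36 (adjusted p = 0.00288). Rad18, a ubiquitin ligase of damage-tolerant replication, rose by 1.06 (adjusted p = 0.0113), from 8.10 and 8.04 to 9.10 and 9.15.

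Mrpl35, a protein of the large mitochondrial ribosomal subunit, rose by 1.04 (adjusted p = 0.0151), from 7.12 and 7.30 to 8.25 and 8.24. Hdhd5, a haloacid dehalogenase-like protein, rose by 1.19 (adjusted p = 0.0285), from 9.28 and 9.25 to 10.44 and 10.48. In all these 5 genes the Igf2-labelled arrays lay between the parthenogenetic and the H19-labelled arrays.

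**Figure D4:**
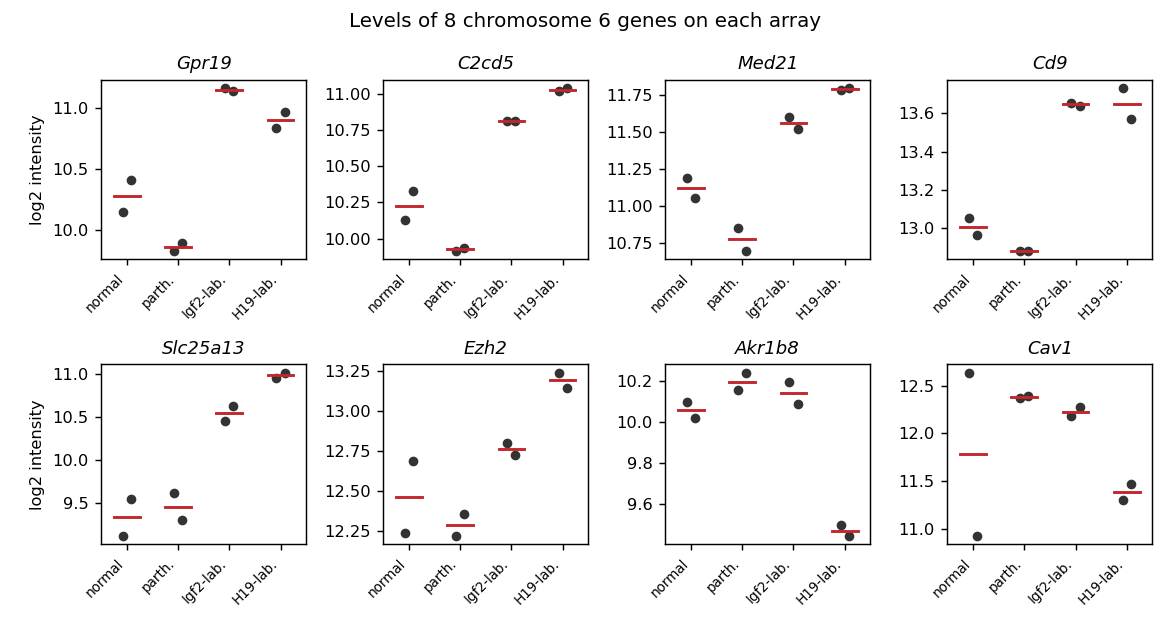
Log2 intensity of 8 chromosome 6 genes on each of 8 arrays (points) with the group mean (red line); parth. and lab. stand for parthenogenetic and labelled. Gpr19, C2cd5, Med21, Cd9, Slc25a13 and Ezh2 are higher in both modified groups than in the parthenogenetic group, while Akr1b8 and Cav1 are lower in the H19-labelled group and the normal arrays of Cav1 lie far apart, at 12.64 and 10.92.

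Lists of roles covered 257 members, and 171 were in none. Of all members 15.7% rose and 0.234% fell in H19-labelled minus parthenogenetic cells, against 2.52% and 1.83% of all probes. The counts of each list below stand beside these shares. Whether the share of a list differs from that of all members was not tested. Among lists with at least 5 members, the cell cycle list and the chromatin and DNA repair list had the highest medians in both modified lines. Of 28 chromatin and DNA repair genes all 28 had a positive difference in both modified lines from parthenogenetic cells, with medians of 0.49 in Igf2-labelled and 0.64 in H19-labelled cells, where 7 rose and 0 fell. Ezh2, the methyltransferase of Polycomb repressive complex 2, stood at 12.22 and 12.36 in parthenogenetic and 13.24 and 13.14 in H19-labelled cells and rose by 0.90 (adjusted p = 0.0352). Its Igf2-labelled arrays, at 12.80 and 12.73, lay between. Setd5, a SET domain protein, rose by 1.02 (adjusted p = 0.013) and Brpf1, a scaffold of histone acetyltransferases, by 0.69 (adjusted p = 0.0241). Kdm3a, a histone H3 lysine 9 demethylase, differed by 0.59 (adjusted p = 0.0629) and rose against normal ES cells by 0.66 (adjusted p = 0.0438), and a further probe of it rose by 0.70 from parthenogenetic cells (adjusted p = 0.0214). The brightest of this list that did not pass were Phc1 (0.29 in Igf2-labelled and 0.28 in H19-labelled cells), Ruvbl1 (0.35 and 0.04) and Chd4 (0.25 and 0.30). Further Phc1 probes differed by 0.75 and 0.32 in Igf2-labelled and by 0.91 and 0.16 in H19-labelled cells, and none passed.

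Cell cycle genes had medians of 0.53 in Igf2-labelled and 0.81 in H19-labelled cells, and 5 of 12 rose and 0 fell in the latter. Ncapd2, a condensin subunit, rose by 0.90 (adjusted p = 0.0461). Ints13, an Integrator subunit, rose by 0.90 (adjusted p = 0.0273) and Cul1, the scaffold of SCF ubiquitin ligases, by 0.57 (adjusted p = 0.0472). Mcm2, a subunit of the replicative helicase, differed by 0.82 (adjusted p = 0.142), with normal arrays at 12.08 and 13.04. Ccnd2, cyclin D2, went the other way, at 12.27 and 12.55 in parthenogenetic and 11.67 and 11.75 in H19-labelled cells (difference -0.70, adjusted p = 0.0786).

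RNA processing and translation genes had medians of 0.44 in Igf2-labelled and 0.57 in H19-labelled cells, and 12 of 37 rose and 0 fell in the latter. The splicing-related Wbp11 rose by 0.63 (adjusted p = 0.0304), the LSm ring protein Lsm5 by 0.72 (adjusted p = 0.0304), the ribosome assembly factor Rbm28 by 0.57 (adjusted p = 0.037) and Strap, a subunit of the SMN complex, by 0.66 (adjusted p = 0.0417). The single-strand RNA-binding Pcbp1 differed by 0.32 (adjusted p = 0.169).

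All 24 mitochondrial genes had a positive difference in both lines, with medians of 0.37 and 0.57, and 5 rose and 0 fell in H19-labelled cells. Ssbp1, which coats single-stranded mitochondrial DNA, rose by 0.60 (adjusted p = 0.0425), Ndufb2, a complex I subunit, by 0.55 (adjusted p = 0.0392) and Bid, a pro-apoptotic BCL2 family protein, by 0.77 (adjusted p = 0.0384). Ndufa4, a respiratory chain subunit listed here with complex I and since assigned to cytochrome c oxidase, Suclg1, of succinyl-CoA ligase, and Hibadh, of valine breakdown, differed by 0.40, 0.44 and 0.49 and did not pass.

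Ubiquitin and protein turnover genes had medians of 0.35 and 0.45, with 5 of 19 higher and 0 lower in H19-labelled cells. Among them Znrf2 rose by 0.82 (adjusted p = 0.0243) and Rnf181 by 0.62 (adjusted p = 0.0376), both ubiquitin ligases, Tax1bp1, an autophagy receptor, by 0.55 (adjusted p = 0.036) and Mkrn1, another ubiquitin ligase, by 0.55 (adjusted p = 0.0463). Sem1, of the proteasome lid, differed by 0.40 and Klhdc10 by 0.24. Usp18, which removes the ubiquitin-like ISG15, stood at 13.06 and 13.03 in parthenogenetic and 12.41 and 12.43 in H19-labelled cells (difference -0.63, adjusted p = 0.137).

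Secretory and vesicle genes had medians of 0.33 and 0.39, and 5 of 33 rose and 0 fell in H19-labelled cells. Necap1, of clathrin-mediated endocytosis, rose by 0.75 (adjusted p = 0.0216) and Tex261 by 0.65 (adjusted p = 0.0325). Arf5, a small GTPase of the Golgi, and Tgoln1, a trans-Golgi protein, differed by 0.48 and 0.56 and rose against normal ES cells by 0.68 (adjusted p = 0.0347) and 0.58 (adjusted p = 0.047). The proton pump subunits Atp6v1f and Atp6v1e1 differed by 0.43 and 0.11.

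Core metabolism genes had medians of 0.25 and 0.35, and 1 of 23 rose in H19-labelled cells, Retsat, retinol saturase (0.77, adjusted p = 0.0226), at 9.83 and 9.74 in parthenogenetic and 10.52 and 10.60 in H19-labelled cells. Spr, sepiapterin reductase of tetrahydrobiopterin synthesis, differed by 0.51 there and rose by 0.95 against normal ES cells (adjusted p = 0.0173). Aldh1l1, of folate metabolism, was not above background in normal ES cells and was at least 1.57-fold higher in H19-labelled cells (adjusted p = 0.04).

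Members that lay wholly below parthenogenetic cells in H19-labelled cells, 32.7% of all probes, made up 48.0% of the adhesion, matrix and cytoskeleton list (12 members), 32.0% of signalling genes (8), 34.8% of transcription factors (8) and 60.0% of immune genes (3 of 5). The signalling and transcription shares are near the background. Each other role list held 0 to 2 such members, at most 8.7% of the list. The 25 adhesion, matrix and cytoskeleton genes had medians of 0.06 in Igf2-labelled and -0.08 in H19-labelled minus parthenogenetic cells, where 10 lay wholly above. Of the 25, 4 rose and 0 fell: Fkbp4, a co-chaperone that binds tubulin (0.72, adjusted p = 0.0314), Cd9, Brk1 of the actin-regulating WAVE complex (0.70, adjusted p = 0.0226) and Anxa4, an annexin (0.53, adjusted p = 0.0447). The focal adhesion protein Zyx had log2 intensities of 13.47 and 12.28 in normal, 13.68 and 13.66 in parthenogenetic, 13.55 and 13.55 in Igf2-labelled and 12.89 and 12.87 in H19-labelled cells (difference -0.79, adjusted p = 0.226). Fbln2, a matrix fibulin, differed by -0.82 (adjusted p = 0.292) and Emp1, a membrane protein, by -0.50 (adjusted p = 0.524).

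Fibroblast markers were lower in the same comparison by a median of 0.87, with 12 of 12 markers lower and 0 past the threshold, and their part in this list was not tested. In H19-labelled minus normal cells, where the fibroblast median was -0.11, the adhesion list had a median of 0.21 with 4 of 25 higher. Of all members 15.7% rose there, and of all probes 2.95%. In Igf2-labelled minus normal cells the fibroblast median was 0.52 and the list's 0.55.

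Signalling genes had medians of 0.19 and 0.21, with 2 of 25 higher in H19-labelled cells, Gpr19 and Dusp16, a phosphatase of stress kinases (0.67, adjusted p = 0.0447). Gprc5a, an orphan receptor, and Vhl, the ubiquitin ligase subunit that marks hypoxia factors for destruction, differed by 0.67 and 0.73 and rose against normal ES cells by 0.89 (adjusted p = 0.0297) and 1.00 (adjusted p = 0.0438). The taurine carrier Slc6a6 and the kinase Wnk1 differed by 0.51 and 0.52 and did not pass. Of the further Wnk1 probes 1 rose by 1.46 (adjusted p = 0.0151) and the other differed by 0.67 (adjusted p = 0.226). Creld1, in no list, rose by 0.74 (adjusted p = 0.0183).

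Transcription factors had medians of 0.24 in Igf2-labelled and 0.04 in H19-labelled cells, where 2 of 23 rose and 0 fell, Zfp638 (0.75, adjusted p = 0.0178) and Zfp282 (0.55, adjusted p = 0.0393), both zinc finger proteins. Tcf7l1, a Wnt pathway repressor abundant in ES cells, differed by 0.56 in Igf2-labelled and 0.50 in H19-labelled cells (adjusted p = 0.164 and 0.0916). Zfp212 differed by 0.41 and 0.47. Ybx3, a cold shock domain protein, and Irf5, an interferon regulatory factor, differed by 0.52 and 0.90 in H19-labelled cells and rose against normal ES cells by 0.66 (adjusted p = 0.0292) and 1.07 (adjusted p = 0.0306). The 4 Hoxa genes among the members, Hoxa2, Hoxa5, Hoxa7 and Hoxa13, had medians of 0.22 in Igf2-labelled and -0.32 in H19-labelled cells, and none passed. Hoxa5 stood at 9.73 and 8.29 in normal, 9.66 and 9.59 in parthenogenetic, 10.11 and 9.85 in Igf2-labelled and 9.15 and 8.95 in H19-labelled cells.

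Of 5 immune genes 1 rose in H19-labelled cells, Ptpn6, the phosphatase SHP-1, from 9.89 and 9.90 to 10.83 and 10.81 (0.93, adjusted p = 0.0185). Parp12, another of the 5, differed by 0.27. The germ cell list held Stra8, Acrbp and Figla, and none passed. Stra8, the gatekeeper of meiosis, had the largest difference of all members, 2.34 (adjusted p = 0.0882), at 6.96 and 6.89 in parthenogenetic and 8.93 and 9.60 in H19-labelled cells, but its normal arrays stood at 7.38 and 9.50. Figla, an oocyte transcription factor, differed by 0.06. The 171 members in no list had medians of 0.24 and 0.33.

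**Figure D5:**
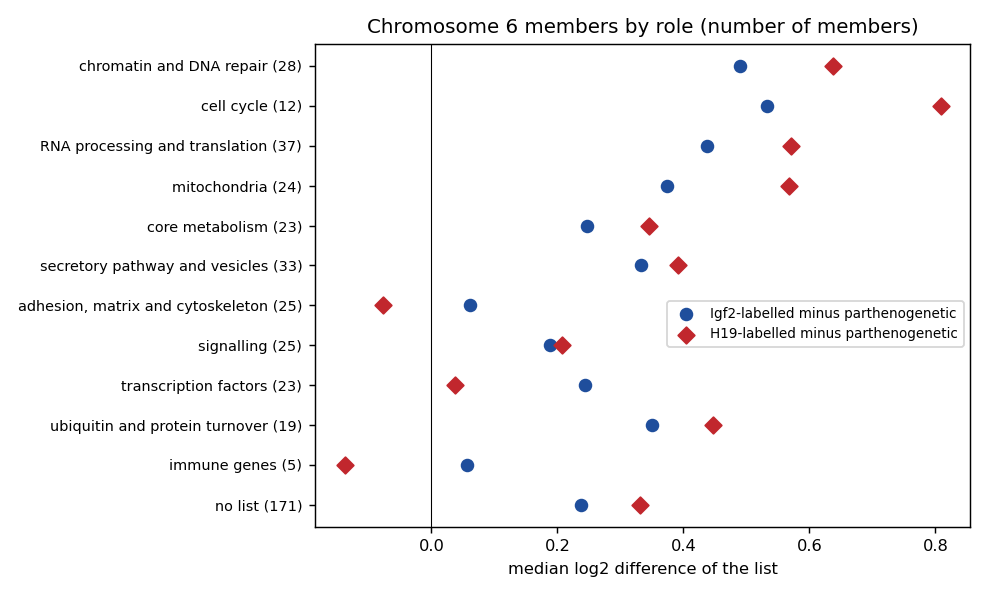
Median log2 difference from parthenogenetic cells of the chromosome 6 members in each role list with at least 5 members, for Igf2-labelled (circles) and H19-labelled cells (diamonds); the number of members is in parentheses. Medians run from 0.06 to 0.53 and from -0.14 to 0.81, lowest for immune and adhesion genes and highest for cell cycle genes.

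Subunits of one complex that are encoded on different chromosomes allowed a comparison of like genes. For respiratory complex I the list held 4 genes on chromosome 6, Ndufa4, Ndufa5, Ndufa9 and Ndufb2. Ndufa4 has since been assigned to cytochrome c oxidase. The 4 had medians of 0.33 in Igf2-labelled and 0.47 in H19-labelled minus parthenogenetic cells, while 29 elsewhere had -0.08 and 0.03. In the first comparison 0 of the 29 exceeded the chromosome 6 median and in the second 1 did. Of the mitochondrial ribosome, 6 proteins on chromosome 6 had medians of 0.40 and 0.61 and 65 elsewhere -0.03 and 0.07, and 0 of the 65 exceeded the chromosome 6 median in either. Of the Sm and LSm rings of splicing and RNA decay, Lsm3, Lsm5, Lsm8 and Snrpg had medians of 0.46 and 0.70 and 8 partners -0.05 and 0.13.

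Single subunits gave the same picture, with partners of the cell cycle group also positive in H19-labelled cells. Mcm2 differed by 0.59 and 0.82, and the other 5 helicase subunits by medians of 0.10 and 0.33. Ncapd2 differed by 0.41 and 0.90, and 5 condensin partners by 0.00 and 0.28. Aebp2 and Ezh2 of Polycomb repressive complex 2 had medians of 0.69 and 0.81 and 7 partners 0.10 and 0.29, with 1 of the 7 higher past the threshold in H19-labelled cells. Cct7 of the TRiC chaperonin differed by 0.21 and 0.45 and 7 partners by -0.07 and 0.03, and Copg1 of the COPI coat by 0.33 and 0.24 and 7 partners by 0.04 and -0.09. Chd4 of the NuRD complex differed by 0.25 and 0.30 and 8 partners by -0.02 and 0.10. The vacuolar ATPase had 4 subunits at 0.22 and 0.27 and 11 partners at -0.06 and -0.14. Glycolysis differed least clearly, with 3 enzymes at 0.11 and 0.28 and 10 partners at -0.21 and 0.06, of which 1 and 4 exceeded the chromosome 6 median. The 3 were Eno2 (0.56 and 0.59), Gapdh, whose probe is near the top of the scale, and Tpi1. A further Tpi1 probe differed by 0.57 and 0.81 and another by 0.05 and 0.30.

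The member that fell was Akr1b8, an aldo-keto reductase, whose promoter is given above. It stood at 10.10 and 10.02 in normal, 10.15 and 10.24 in parthenogenetic, 10.20 and 10.09 in Igf2-labelled and 9.50 and 9.44 in H19-labelled cells. The H19-labelled arrays lay below all 6 others. Among these the parthenogenetic arrays lay above the normal arrays, and the Igf2-labelled arrays overlapped both groups. The fall was -0.73 ± 0.107 (SE, n = 2, adjusted p = 0.0202) from parthenogenetic and -0.59 (adjusted p = 0.0288) from normal ES cells, while Igf2-labelled cells differed by -0.05 (adjusted p = 0.955). Akr1b10, a member of the same gene family on the chromosome, stayed within 10.89 and 11.09 in the parthenogenetic and modified groups. Tril, a Toll-like receptor accessory protein, was not above background in H19-labelled cells and fell against normal ES cells, at least 2.08-fold lower (adjusted p = 0.0257).

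The members with the largest differences against the shift in H19-labelled minus parthenogenetic cells did not pass in the fit of all arrays. Epha1, an ephrin receptor, was not above background in H19-labelled cells and at least 2.14-fold lower (adjusted p = 0.122). Actg2, smooth muscle gamma actin, stood at 9.96 and 7.98 in normal, 10.12 and 10.10 in parthenogenetic, 9.65 and 9.56 in Igf2-labelled and 8.77 and 8.79 in H19-labelled cells (difference -1.33, adjusted p = 0.207). Cav1, the coat protein of caveolae, differed by -0.99 (adjusted p = 0.266), Gxylt2, a xylosyltransferase, by -1.0 (adjusted p = 0.302) and Pbp2 by -1.14 (adjusted p = 0.219). In these 4 genes the normal arrays lay 1.72 to 1.98 apart, with replicate 1 near the parthenogenetic arrays and replicate 2 below the H19-labelled arrays. The mean of the fibroblast markers was likewise lower on normal replicate 2 (10.99) than on the H19-labelled arrays (11.63 and 11.61) and far higher on normal replicate 1 (12.45), and their part was not tested. Fitted without the normal arrays the adjusted p of the 4 was between 0.00033 and 0.00082 (limma), where 17.1% of all probes were lower. The 4 were chosen for large differences in this same comparison. Low values therefore follow in part from the choice, and no conclusion is drawn from them.

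Trh, which encodes thyrotropin-releasing hormone, was lower in both lines. Its log2 intensities were 11.97 and 13.54 in normal, 12.50 and 12.50 in parthenogenetic, 11.43 and 11.24 in Igf2-labelled and 11.23 and 11.34 in H19-labelled cells. The differences were -1.17 (adjusted p = 0.372) and -1.22 (adjusted p = 0.163), and the modified arrays lay below all 4 unmodified arrays, with normal replicate 2 the highest, opposite to its place in Actg2.

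A set of 17 members, chosen after their values were seen, lay wholly on opposite sides of the parthenogenetic arrays in the modified lines, 3.97% of members against a background of 7.21% of all probes. Of these, 14 were higher in Igf2-labelled and lower in H19-labelled cells (background 3.03%), among them Hoxa5, Hoxa7 and Gata2, a transcription factor of blood and trophoblast, and 3 the reverse (background 4.18%), Hilpda, Fam221a and Acrbp. Gata2 stood at 8.61 and 7.05 in normal, 8.15 and 8.20 in parthenogenetic, 8.59 and 8.60 in Igf2-labelled and 7.56 and 7.91 in H19-labelled cells. None of the 17 passed between the modified lines in the fit of all arrays.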

How the data were processed

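RNA of 8 mouse ES cell samples, 2 in each of 4 groups named by the sample titles, was extracted with Trizol, cleaned on columns and turned into biotinylated cRNA for Illumina arrays (labels' protocols). In the main file the authors deposited non-normalized probe intensity values, and with each a detection p-value written by the authors to 2 decimals, per the file headers. A second table, log2 values of 12690 probes, was deposited too, each detected by that p-value on 4 or more arrays, with a median of 9.55 on every array; its tool and the scanner software are not given in these sources. Of the sample columns 0 were left unassigned.

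Intensities were background corrected and quantile normalized with neqc in limma 3.58.1 (R 4.3.3, offset 16, controls inferred from detection p-values). The detection filter (under 0.05 in both replicates of 1 group or more) kept 12932 probes. A model of 4 group means over 8 arrays was fitted (lmFit, eBayes; residual degrees of freedom 4, prior 2.81), so that all contrasts share 1 spread per probe. Each of 6 contrasts was tested two-sided with limma and Benjamini-Hochberg adjustment over all 12932 probes, at a threshold of 0.05. The depth of an array is not a count, and 2 arrays a group limit the precision. The procedure was tested on simulated data with 200 changed probes of 12932 in 10 repeats, where 5.58% of calls were false.

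Names came from the platform annotation (11960 probes with 1 symbol, 0 with several, 13737 unnamed here), and 11953 matched RefSeq. Unnamed probes, 997 of those tested, stay in the adjustment and the backgrounds. The array files name no build, so positions are gene order, except the RefSeq promoters. Where no array of a group detected a gene, its level is a bound: "at least" sets the bright group's mean against the dim group's, each dim array taken as the higher of its own value and the lowest value among detected probes on it. Members, role lists and comparisons were chosen with earlier results of these data known. Genes were named by a rule: up to 8 largest rises and falls past the threshold per contrast, the brightest members of each role list past (4) and not past (3) it, the brightest of each block, and the 6 largest differences against the shift. Replicate numbers were not used to pair the samples. Same-numbered deviations correlated at -0.0264 to 0.173 and the labels give no shared batch, which does not exclude a pairing. Alternatives were background correction, scaling, filter, probe choice, spread model, array weights, the replicate block, the authors' table and leaving out arrays.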

Additional observations from a re-analysis of the deposited data

Results flagged for a closer look

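The 17 members whose arrays lay wholly on opposite sides of the parthenogenetic arrays in the modified lines are given with the difference H19-labelled minus Igf2-labelled. They are 3.97% of members, against 7.21% of all probes with the same pattern. None passed in the fit of all arrays (adjusted p = 0.225 to 0.748, limma). Without the normal arrays their adjusted p was 0.00178 to 0.0462 (limma). The members were chosen because the modified lines lay apart on these same arrays. Low values therefore follow in part from the choice, and no conclusion is drawn from them. Cxcl12, a chemokine, differed by 0.41 in Igf2-labelled and -0.53 in H19-labelled cells from parthenogenetic cells, a difference between the lines of -0.94. The homeobox genes Hoxa5 and Hoxa7 differed between the lines by -0.93 and -0.74, and Gata2 by -0.86. Pdk4, a kinase that inhibits pyruvate dehydrogenase, differed by -0.59, Tapbpl, a peptide-loading protein, by -0.57, and Rep15, a Rab15 effector, by -0.55. Ppfibp1, a liprin, differed by -0.53, Clec2e, a C-type lectin, by -0.50, Bhlhe40, a transcriptional repressor, by -0.47 and Scrn1, a secernin, by -0.47. Gabarapl1, of autophagosomes, differed by -0.39, Ggcx, the vitamin K-dependent carboxylase, by -0.37 and Iapp, amylin, by -0.36. The other way went Fam221a (0.55), Hilpda, a lipid droplet protein (0.40), and Acrbp, of the sperm acrosome (0.32). Further probes did not all show opposite sides. That of Ggcx differed from parthenogenetic cells by -0.28 in Igf2-labelled and -0.50 in H19-labelled cells, and that of Clec2e by 0.25 and 0.03. Further probes of Cxcl12 and Hilpda had the signs of the brightest probe in both lines. Fibroblast markers were lower in H19-labelled than in Igf2-labelled cells by a median of 0.60, with 12 of 12 lower and 0 past the threshold, and their part in these differences was not tested.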

How the results depend on the processing

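The members' median kept its sign in each comparison of a modified line with parthenogenetic or normal cells under every alternative run, within 0.26 to 0.34 and 0.35 to 0.44 for Igf2-labelled and H19-labelled minus parthenogenetic cells, and 0.28 to 0.36 and 0.30 to 0.39 against normal cells. In that order it was 0.33, 0.43, 0.36 and 0.38 when arrays were scaled to the median of probes off chromosome 6, 0.26, 0.35, 0.28 and 0.30 without background correction, and 0.26, 0.36, 0.28 and 0.30 in the authors' log2 table. With an offset of 50 it was 0.29 for Igf2-labelled minus parthenogenetic cells and 0.31 and 0.33 against normal cells. With probes detected on all arrays it was 0.34 and 0.44 against parthenogenetic cells and -0.036 between parthenogenetic and normal cells. Median scaling gave 0.44 for H19-labelled minus parthenogenetic, 0.30 for Igf2-labelled minus normal, 0.089 between the modified lines and -0.054 between parthenogenetic and normal cells, and the mean of all probes of a gene gave 0.43 for H19-labelled minus parthenogenetic cells.

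The share of all probes past the threshold changed with the fit. In H19-labelled minus parthenogenetic cells 2.52% rose and 1.83% fell with all arrays, and 16.1% and 17.1% without both normal arrays. Shares under the other settings of this paragraph are not given here, so their counts cannot be called particular to the chromosome. The number of members past the threshold depended on how the spread was estimated, and the cause was not tested. For Igf2-labelled and H19-labelled minus parthenogenetic cells it was 170 and 294 without both normal arrays (101 between the modified lines), 184 and 303 with array weights (102 between the lines), 130 and 285 with only the groups compared (89 between the lines), and 21 and 111 with a trended robust prior. Against normal cells array weights gave 1 and 0 and only the groups compared 0 and 0, while Igf2-labelled minus normal gave 22 with the trended prior, 14 without background correction and 15 in the authors' table. Igf2-labelled minus parthenogenetic gave 10 in the authors' table and 3 with median scaling. The replicate block gave 1 for Igf2-labelled minus parthenogenetic, 38 for H19-labelled minus parthenogenetic and 1 for Igf2-labelled minus normal. By the labels same-numbered arrays share only a number, and the block changed the other counts by less than 1.5 times.

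The ranges here cover fits without 1 array at a time and the fit without both normal arrays. Members past the threshold numbered 0 to 170 for Igf2-labelled and 0 to 294 for H19-labelled minus parthenogenetic. Against normal they numbered 0 to 205 and 0 to 259. They numbered 0 to 101 between the modified lines and 0 to 198 between parthenogenetic and normal cells. The upper ends 170, 294 and 101 came from the fit without both normal arrays, not from leaving out 1 array. The medians then lay within 0.30 to 0.33, 0.40 to 0.42, 0.30 to 0.35, 0.35 to 0.39, 0.033 to 0.067 and -0.045 to -0.0014. A group left with 1 array was assumed to vary like the others.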
